A study of Mus musculus with 16 samples.

Results

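Mouse embryonic stem cells that relied on CTCF with the Q418R change were compared with cells that relied on CTCF with the R342C change, after both had been taken out of medium with leukemia inhibitory factor (LIF). The comparison covered every gene whose normalised count averaged at least 10 over the 4 libraries, which left 17506 of the 55291 genes in the deposited table, of which 31854 were above 0 in any of the 4 libraries. At the edge of this minimum, 4933433G19Rik was kept with 6.60 and 11.2 in Q418R, against 9.47 and 12.7 in R342C, and Gm34059 was left out with 7.69 and 12.2 in Q418R, against 9.47 and 10.6 in R342C. The cells were E14Tg2a, a feeder-free line of strain 129/Ola, with a degron on their own CTCF and a doxycycline-inducible CTCF transgene. The Q418R, R342C and wild-type transgene (WT) lines all received 500 µM indole-3-acetic acid, which triggers the degron, and doxycycline at 1 µg/ml, each for 2 days by the protocol. The no-LIF groups spent 3 days without LIF, the GSK3 inhibitor CHIR99021 or the MEK inhibitor PD0325901, and the LIF groups had all of these. Each group had 2 libraries of ribosome-depleted total RNA, of 16 libraries in the series. The series also holds a line with the K365T change in CTCF, treated alike in both media. Its libraries were part of the fit that gave the spread for the main tests, but it is not compared here. Each genotype is represented by 1 engineered line, so the mutation and other differences between the lines cannot be told apart. Nothing given says that the 2 libraries of a group came from separate cultures, so p-values measure the spread between these libraries, which may be technical.

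CTCF binds DNA through a row of zinc fingers and halts cohesin as it extrudes loops, which sets many borders of chromosome domains and keeps some enhancers and promoters apart. Both changes lie in the zinc finger domain, so the comparison asks how far cells with 2 different altered fingers differ in their RNA as they leave the naive pluripotent state. On that path cells shut down naive genes, switch on formative regulators such as Otx2, and become ready for germ layer fates.

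The 4 libraries held 20835799 and 21985814 recovered reads in Q418R, against 26515414 and 22615220 in R342C. Ctcf itself had 8406 and 6241 normalised counts in Q418R, against 5589 and 6032 in R342C, a difference that did not pass the test (0.32 ± 0.15, adjusted p = 0.342, SE, limma), and RNA from the tagged gene and from the transgene is not separated in this value. The core pluripotency genes Pou5f1 and Sox2 were well above 0 in all 4 libraries, with Pou5f1 at 7459 and 5082 normalised counts in Q418R, against 6967 and 6537 in R342C, and Sox2 at 5909 and 5019.8 normalised counts in Q418R, against 4934 and 5405 in R342C. Among markers of other cells, Lum was at 0 in all 4 libraries, and the summed normalised count of 14 fibroblast and smooth muscle genes was 2655 and 3335 in Q418R, against 2608 and 4466 in R342C. Of 2 other fibroblast genes, Dcn was at 5.50 and 44.8 normalised counts in Q418R, against 94.7 and 54.1 in R342C. Col1a1 lay the other way, at 311 and 257 in Q418R, against 81.8 and 139 in R342C. Structural RNAs took 2.28% and 2.31% of the normalised counts in Q418R, against 2.44% and 1.90% in R342C. In bulk RNA, fewer cells of a type and less RNA per cell cannot be told apart.

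In all, 383 genes differed at an adjusted p under 0.05, which is 2.19% of the genes tested. Of these, 136 (0.777%) were higher in Q418R and 247 (1.41%) were lower. The higher genes moved further: 101 of them were at least 2-fold higher, and 64 of the 247 were at least 2-fold lower. The calls are thin at 2 libraries a group. With 1 of the 4 libraries left out, the number of calls was 98 without Q418R replicate 1, 107 without Q418R replicate 2, 123 without R342C replicate 1 and 58 without R342C replicate 2. Of the 383, 31 stayed under the threshold in all 4 of these fits, 17 higher and 14 lower, and 201 in none. The libraries of the 2 lines did not overlap in any of the 383, nor in 43.5% of all genes tested. The lack of overlap adds nothing to a call. The count was 769 with DESeq2 on the recovered reads and 131 with TPM, of which 61 were higher and 70 lower. Upper-quartile scaling gave 165 higher and 174 lower genes. For called genes outside the 31, the highest adjusted p over these 4 fits is given as the leave-one-out adjusted p.

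The smallest adjusted p was that of Zbtb39, a gene for a BTB domain zinc finger protein. It had 765 and 840.4 normalised counts in Q418R, against 101 and 110.4 in R342C, a log2 difference of 2.88 ± 0.19, adjusted p = 6.36e-06 (here and below ± SE, limma, Benjamini-Hochberg over all genes tested). WT lay with R342C, at 101 and 134. Nkd2, which encodes an inhibitor of Wnt signalling that binds Dishevelled, had 254 and 252 normalised counts in Q418R, against 35.3 and 39.3 in R342C (2.64 ± 0.35, adjusted p = 0.00259). Here too WT was near R342C, at 30.6 and 48.3, so both genes stood high in Q418R among the 3 lines. Dusp12, a dual-specificity phosphatase gene, had 368 and 325 normalised counts in Q418R, against 60.3 and 88.1 in R342C (2.19 ± 0.24, adjusted p = 0.000801). Mdp1, a magnesium-dependent phosphatase gene, had 245 and 222 normalised counts in Q418R, against 62 and 46.7 in R342C (2.04 ± 0.22, adjusted p = 0.000801). All 4 genes belong to the 31, and all 4 were also higher in Q418R in LIF, by 1.39, 3.53, 2.19 and 1.86 on the log2 scale in the order given.

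Zfp951, another zinc finger gene of the 31, took a different pattern among the lines. It had 1195 and 869.9 normalised counts in Q418R, against 320.2 and 134 in R342C (2.28 ± 0.32, adjusted p = 0.00369), with WT at 649.8 and 666, between the 2 mutants. Cdh18, a type II cadherin gene, had 178 and 207 normalised counts in Q418R, against 37.9 and 34 in R342C (2.30 ± 0.38, adjusted p = 0.00731), and a leave-one-out adjusted p of 0.0722. Plce1, which encodes phospholipase C epsilon, had 532 and 426 normalised counts in Q418R, against 99 and 139 in R342C (1.98 ± 0.39, adjusted p = 0.0182; leave-one-out adjusted p = 0.138). WT overlapped R342C for Plce1, at 177 and 68.5, and lay below both mutants for Cdh18, at 28.7 and 11.2. The noncoding Lrp8os2 had 222 and 166 normalised counts in Q418R, against 35.3 and 55.2 in R342C (2.02 ± 0.34, adjusted p = 0.00841; leave-one-out adjusted p = 0.0784). It overlaps Lrp8 on the other strand, whose difference of -0.66 did not pass (adjusted p = 0.213), and the strand setting of the authors' counting is not given in the sources used here.

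The Y chromosome gave 2 higher genes among 11 tested, where 0.777% of all genes were higher. They were Zfy1, a zinc finger transcription factor gene, and Kdm5d, a histone H3 lysine demethylase gene. Kdm5d was low in R342C and passed the count minimum only through Q418R. The count of 2 therefore describes the genes tested and not the chromosome, and its share cannot be weighed against that of all genes. Zfy1 had 293 and 278 normalised counts in Q418R, against 91.3 and 27.6 in R342C (2.40 ± 0.47, adjusted p = 0.0174; leave-one-out adjusted p = 0.172), and WT had 206 and 382, so R342C was the line that stood low. Kdm5d had 41.8 and 19.4 normalised counts in Q418R, against 5.17 and 5.31 in R342C (1.82 ± 0.36, adjusted p = 0.0182; leave-one-out adjusted p = 0.179), with WT at 3.83 and 8.98, so here Q418R stood high. Other Y-linked genes at higher levels were not called: Eif2s3y had 1367 and 1111 normalised counts in Q418R, against 1354 and 1285 in R342C, Ddx3y had 1865 and 1374 normalised counts in Q418R, against 1742 and 1922 in R342C, and Uty had 1565 and 1213 normalised counts in Q418R, against 1723 and 1406 in R342C, and none of the 3 passed the test (adjusted p = 0.801, 0.642 and 0.712). Zfy1 shares 14.6% of the 150-base stretches of its annotated transcripts with Zfy2, which leaves its reads partly uncertain.

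**Figure D1:**
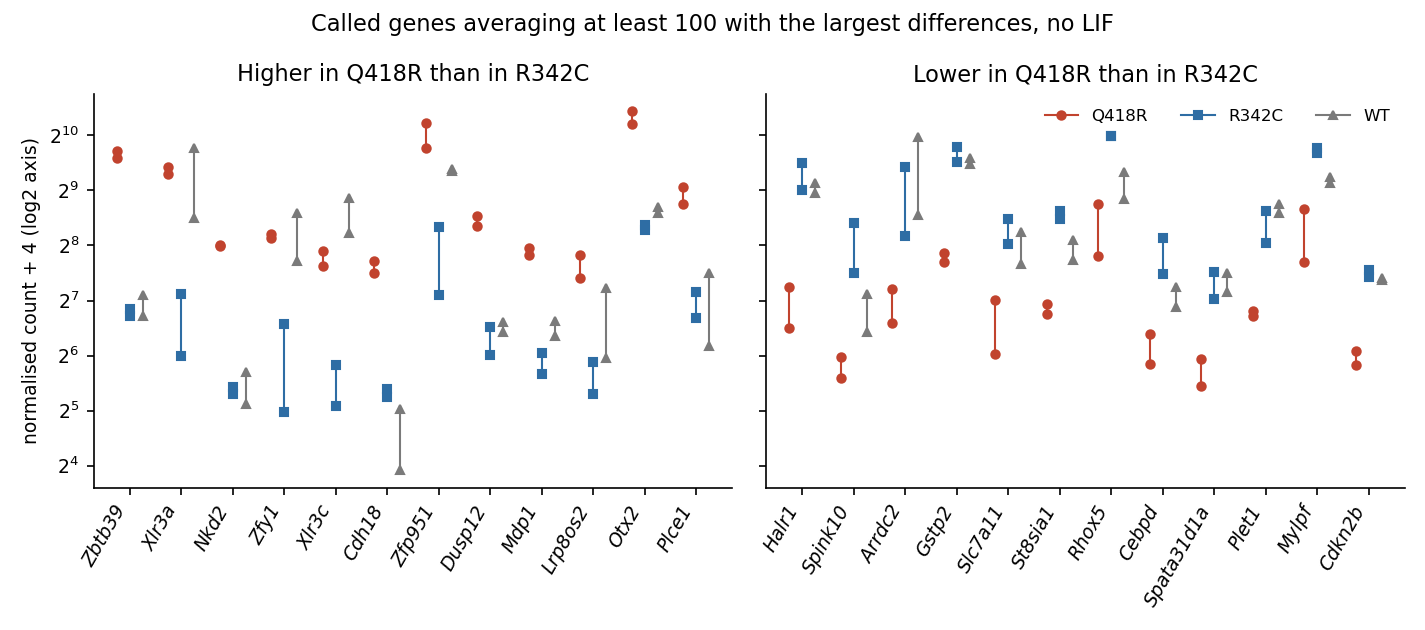
Normalised counts plus 4, on a log2 axis, in each of the 2 libraries per line without LIF for the 12 largest rises (left) and 12 largest falls (right) in Q418R against R342C among called genes that averaged at least 100, with WT beside them; lines join the 2 libraries of a line. The genes were chosen among those whose lines do not overlap. WT lies near R342C for Zbtb39 and Nkd2 but near Q418R for Xlr3a and Zfy1.

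Among the genes that fell, Gstp2 and Gstp1, which encode pi-class glutathione S-transferases, kept their calls with any 1 library left out. Gstp2 had 203 and 229 normalised counts in Q418R, against 882 and 728 in R342C (-1.87 ± 0.26, adjusted p = 0.00301), and WT had 709 and 769.9. Gstp1 had 1331 and 1543 normalised counts in Q418R, against 3214 and 3227 in R342C (-1.17 ± 0.13, adjusted p = 0.000826), and WT had 3302 and 3743. Q418R was therefore the low line for both, although 32.2% of the 150-base stretches of Gstp2 transcripts also occur in Gstp1, so the counting of the 2 genes is not independent. Other falls of the 31 with a position outside the chromosomal segments described below were those of Agpat3, Prkag1 and Hes6. They encode an acyltransferase of phosphatidic acid synthesis, a regulatory subunit of the AMP-activated kinase and a basic helix-loop-helix protein. Septin1, without a single position in the annotation, is given further below. Agpat3 had 577 and 542 normalised counts in Q418R, against 1311 and 1685 in R342C (-1.40 ± 0.16, adjusted p = 0.000826). Prkag1 had 579 and 706 normalised counts in Q418R, against 1269 and 1374 in R342C (-1.04 ± 0.12, adjusted p = 0.000826). Hes6 had 619.9 and 859.7 normalised counts in Q418R, against 1618 and 1866 in R342C (-1.25 ± 0.17, adjusted p = 0.00319).

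The remaining large falls lost their call when a library was left out. Halr1, a long noncoding RNA gene beside the Hoxa cluster on chromosome 6, had 148 and 86.6 normalised counts in Q418R, against 512 and 715 in R342C (-2.37 ± 0.37, adjusted p = 0.00585; leave-one-out adjusted p = 0.0716). Slc7a11, the cystine and glutamate exchanger that feeds glutathione synthesis, had 61.6 and 125 normalised counts in Q418R, against 355 and 256 in R342C (-1.73 ± 0.41, adjusted p = 0.0419; leave-one-out adjusted p = 0.322). Cdkn2b, which encodes the cell cycle inhibitor p15, had 63.8 and 53 normalised counts in Q418R, against 184 and 169 in R342C (-1.54 ± 0.30, adjusted p = 0.0182; leave-one-out adjusted p = 0.116). In all 3 the WT libraries lay above both Q418R libraries, with Halr1 at 557 and 493, Slc7a11 at 199 and 299.7 and Cdkn2b at 161 and 165. Cebpd, a C/EBP family transcription factor gene, had 53.9 and 80.5 normalised counts in Q418R, against 175 and 277 in R342C (-1.68 ± 0.34, adjusted p = 0.0207; leave-one-out adjusted p = 0.205). Plet1, a gene of the placenta and of trophoblast precursors, had 101 and 108 normalised counts in Q418R, against 390.0 and 260.0 in R342C (-1.57 ± 0.29, adjusted p = 0.014; leave-one-out adjusted p = 0.11). Of the 12 largest falls among called genes that averaged at least 100, the others, Spink10, Arrdc2, St8sia1, Rhox5, Spata31d1a and Mylpf, differed by -2.17 to -1.54, with a leave-one-out adjusted p of 0.0939 to 0.26. Of them Arrdc2 had 92.3 and 145 normalised counts in Q418R, against 685 and 283 in R342C, the widest spread within R342C. Below an average of 100, the fitted fall of Ucn, which encodes the neuropeptide urocortin, was larger, with 0 and 3.06 normalised counts in Q418R, against 31.9 and 27.6 in R342C (-2.66 ± 0.53, adjusted p = 0.0186; leave-one-out adjusted p = 0.162). It rested on 3 reads in Q418R and 63 in R342C, a ratio of 0.053 (95% interval 0.0106 to 0.162). Gbp4, an interferon-inducible GTPase gene also below that average, was higher in Q418R, with 134 and 96.8 normalised counts in Q418R, against 13.8 and 12.7 in R342C (2.77 ± 0.49, adjusted p = 0.0105; leave-one-out adjusted p = 0.0936).

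The X-linked Xlr genes, a multicopy family related to a synaptonemal complex protein and expressed in lymphoid and germ cells, were higher in Q418R than in R342C wherever they could be tested. All 7 Xlr genes that passed the count minimum, of 15 Xlr names of the Xlr3, Xlr4 and Xlr5 groups in the table, were higher in Q418R; a gene near 0 in 1 line passes such a minimum only through the other, so this count describes the 7 and not the family. They lie together at chrX:73074345-73292976 (mm10). Xlr3a had 680.4 and 627 normalised counts in Q418R, against 134 and 59.4 in R342C (2.81 ± 0.42, adjusted p = 0.0056). Xlr4a had 114 and 82.5 normalised counts in Q418R, against 9.47 and 1.06 in R342C (3.62 ± 0.56, adjusted p = 0.0056). For Xlr5a, 119 reads were recovered in Q418R and 2 in R342C, a depth-scaled ratio of 66.2 (95% interval 17.9 to 553, covering counting error only). The fitted differences of all 7 lay between 1.96 (Xlr3b) and 3.79 (Xlr5a), or 3.9-fold to 13.9-fold on the scale with 4 added. Xlr4b kept its call with any 1 library left out; the leave-one-out adjusted p was 0.0681 for Xlr3a, 0.0833 for Xlr3b, 0.0795 for Xlr3c, 0.0716 for Xlr4a, 0.0531 for Xlr5a and 0.246 for Xlr5b.

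WT lay with Q418R for these genes. The WT libraries had 357 and 869.8 normalised counts of Xlr3a, 38.3 and 111 of Xlr4a and 32.5 and 84.2 of Xlr5a. Across the 7 genes the difference from WT was -0.78 to 0.54 in Q418R and -3.57 to -2.03 in R342C, so the low line was R342C; its difference from WT passed for 6 of the 7 genes and not for Xlr5b (adjusted p = 0.0731). The copies are close relatives, and 11% to 45.0% of the 150-base stretches of each one's transcripts occur in another copy of its subgroup, so the 7 values are not 7 independent measurements. The start regions of Xlr4a and Xlr4b show how alike a pair can be, with 288 equal bases over 308 aligned positions. They are given here because the 2 genes moved together, 250 bases before to 50 after the RefSeq start (GRCm38.p6, Xlr4a on the minus strand at chrX:73082458-73082757, Xlr4b on the plus strand at chrX:73214083-73214382, 5′ to 3′ along the gene), with bases that have no equal partner in the alignment in capitals, the offset ends included.
Xlr4a: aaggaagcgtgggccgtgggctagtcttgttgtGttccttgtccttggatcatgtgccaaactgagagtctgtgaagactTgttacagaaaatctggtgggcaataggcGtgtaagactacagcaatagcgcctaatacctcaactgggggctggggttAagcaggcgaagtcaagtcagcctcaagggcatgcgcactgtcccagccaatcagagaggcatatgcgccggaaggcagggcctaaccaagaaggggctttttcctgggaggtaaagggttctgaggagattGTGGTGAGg
Xlr4b: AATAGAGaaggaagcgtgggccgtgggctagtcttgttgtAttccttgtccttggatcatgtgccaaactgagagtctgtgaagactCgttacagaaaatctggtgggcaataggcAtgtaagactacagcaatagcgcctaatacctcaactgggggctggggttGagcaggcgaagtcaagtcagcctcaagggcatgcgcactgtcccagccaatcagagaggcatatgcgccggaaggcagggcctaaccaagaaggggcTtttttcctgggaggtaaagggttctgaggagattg

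Another X-linked gene of the same list was lower in Q418R. Rhox5, a homeobox gene of the reproductive cluster, had 429.8 and 220.0 normalised counts in Q418R, against 1012 and 1007 in R342C (-1.70 ± 0.34, adjusted p = 0.0186; leave-one-out adjusted p = 0.153), and WT had 457 and 643. Rhox6 and Rhox9 of the same cluster did not pass, with differences of -1.24 (adjusted p = 0.217) and -0.26 (adjusted p = 0.806). Of the 12 tested genes in the list of Xlr and Rhox families, 7 were thus higher, 1 lower and 4 not called, with a median of 2.14, against -0.01 over all genes tested. Among all genes tested, 0.777% were higher and 1.41% lower.

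The clustered protocadherins, cell adhesion genes whose variable promoters carry CTCF sites and are chosen singly in neurons, were another family with several calls. Only 15 of 57 protocadherin genes in the table passed the count minimum, and 4 of these, all of the gamma cluster on chromosome 18, were higher in Q418R. Of all genes tested, 0.777% were higher. The other 11 protocadherin genes were not called, and of the 15, 12 were above 0 and 3 below. Pcdhga11 of the gamma cluster lay the other way, at -1.26 (limma adjusted p = 0.0722). Among the 15, edgeR called 3 and DESeq2 called 1, with no DESeq2 adjusted p for Pcdhga2, Pcdhga7 and Pcdhgb4. Pcdhga1 had 63.8 and 58.1 normalised counts in Q418R, against 5.17 and 9.55 in R342C (2.54 ± 0.39, adjusted p = 0.0056; leave-one-out adjusted p = 0.0505). Pcdhga2 had 33 and 34.6 normalised counts in Q418R, against 1.72 and 1.06 in R342C (2.81 ± 0.33, adjusted p = 0.000826), from 64 reads in Q418R and 3 in R342C, a ratio of 23.7 (95% interval 7.76 to 118). Pcdhga7 had 28.6 and 16.3 normalised counts in Q418R, against 0 and 3.18 in R342C (2.26 ± 0.52, adjusted p = 0.0362; leave-one-out adjusted p = 0.251), from 42 reads in Q418R and 3 in R342C, a ratio of 15.6 (95% interval 4.98 to 78.5). Pcdhgb4 had 30.8 and 26.5 normalised counts in Q418R, against 3.44 and 3.18 in R342C (2.15 ± 0.48, adjusted p = 0.0313; leave-one-out adjusted p = 0.185). The WT libraries had 1.91 and 11.2 of Pcdhga1 and 3.83 and 2.25 of Pcdhga2, so Q418R was the high line here, in contrast to the Xlr genes. As with the Xlr genes, some of the 15 passed the minimum only through Q418R, so the count of 4 describes those tested and not the clusters. Gamma genes splice to shared constant exons, and 34.8% to 43.4% of the 150-base stretches of these 4 genes' transcripts occur in another of the 4, so part of the reads cannot be assigned to 1 of them.

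**Figure D2:**
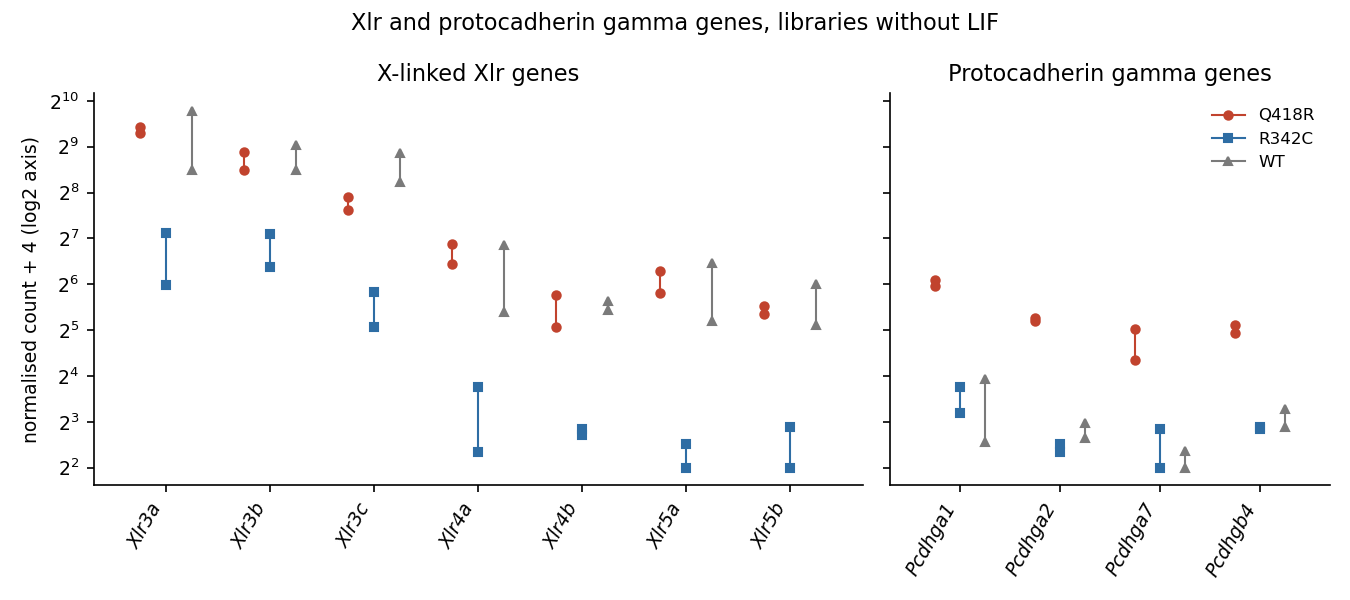
Normalised counts plus 4, on a log2 axis, of the 7 tested Xlr genes (left) and the 4 called protocadherin gamma genes (right) in each library of Q418R, R342C and WT without LIF. R342C sits below both Q418R and WT for every Xlr gene, whereas Q418R sits above both R342C and WT for every protocadherin gene shown.

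Most of the lower genes lay on 2 stretches of the genome. On chromosome 6, 101 of 857 tested genes were lower in Q418R and 3 were higher, so that 12.1% were called, against 2.19% of all genes, and the median over all 857 was -0.35, a 0.784-fold level. On the first 40 Mb of chromosome 5, 61 of 287 tested genes were lower and 1 was higher (21.6% called), with a median of -0.46, a 0.729-fold level. The chromosome 5 genes ran from Gatad1 at chr5:3632932-3657185 to Lyar at chr5:38220470-38234306 (mm10), and beyond 40 Mb the median of chromosome 5 was 0.02. On chromosome 6 the first 20 Mb had a median of -0.04 and the rest -0.37, and 13 of its 15 windows of 10 Mb were shifted by at least 0.25. In neither place did R342C depart from WT: its median difference from WT was 0.00 in both stretches, whereas that of Q418R was -0.35 on chromosome 6 and -0.44 on proximal chromosome 5. Chromosome 1 had a smaller shift in the other direction, with a median of 0.18, 15 higher genes and 2 lower of 1065. The rest of the genome held 113 higher and 80 lower genes of 14924 (1.29%). The number of copies of these stretches in the lines was not tested.

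**Figure D3:**
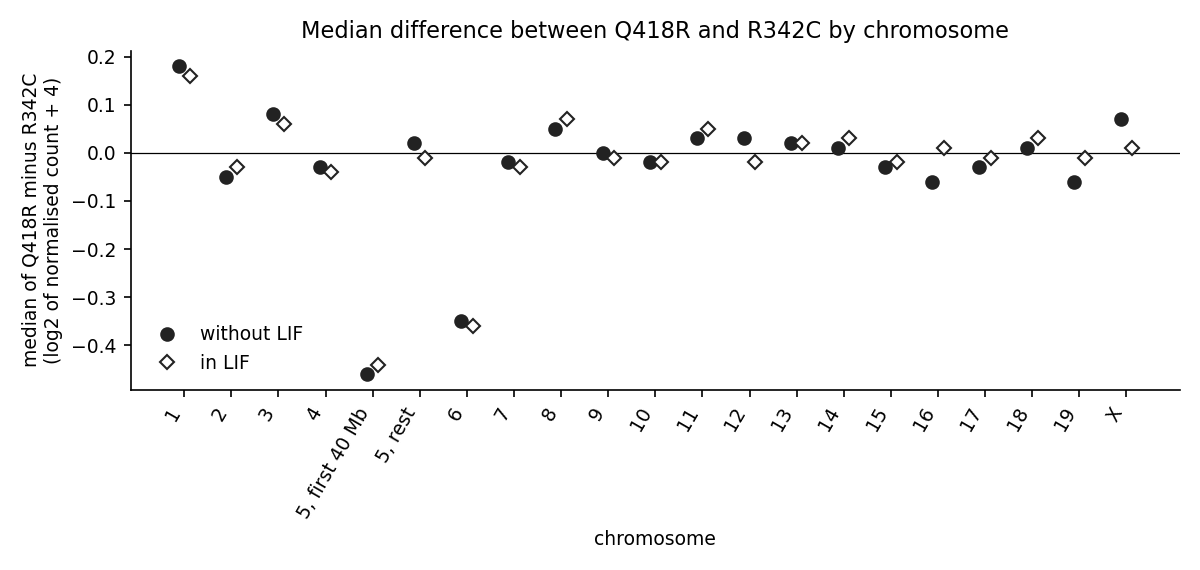
Median over the tested genes of each chromosome of the difference Q418R minus R342C, in log2 of the normalised count plus 4, without LIF (filled circles) and in LIF (open diamonds). Chromosome 6 and the first 40 Mb of chromosome 5 stand below all other chromosomes in both media, and chromosome 1 stands highest.

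Examples of genes on these stretches follow, some of them chosen after their values were seen. On proximal chromosome 5, Cad, the enzyme that begins pyrimidine synthesis, had 15704 and 13922 normalised counts in Q418R, against 22282 and 23968 in R342C (-0.64 ± 0.12, adjusted p = 0.0131; leave-one-out adjusted p = 0.116). Hadha and Hadhb, the subunits of the mitochondrial enzyme of long-chain fatty acid oxidation, differed by -0.93 ± 0.14 (adjusted p = 0.0056) and -1.0 ± 0.15 (adjusted p = 0.00523), and Cenpa, the histone H3 variant of centromeres, by -0.83 ± 0.13 (adjusted p = 0.0056). These 3 belong to the 31, as does Abcb1b, one of the paired drug efflux pump genes, which had 948 and 974 normalised counts in Q418R, against 2489 and 2279 in R342C (-1.31 ± 0.16, adjusted p = 0.00129). On chromosome 6, the ethanolamine kinase gene Etnk1 fell well beyond the median of its chromosome, with 7454 and 9506 normalised counts in Q418R, against 24248 and 23771 in R342C (-1.51 ± 0.16, adjusted p = 0.000801). Serbp1, which encodes an mRNA-binding protein of ribosomes, had 18354 and 16289 normalised counts in Q418R, against 27359.8 and 26305 in R342C (-0.63 ± 0.11, adjusted p = 0.0103; leave-one-out adjusted p = 0.0896), and the ubiquitin ligase gene Mkrn1 differed by -0.83 ± 0.16 (adjusted p = 0.0155; leave-one-out adjusted p = 0.12). Among the 3 higher genes of chromosome 6, the noncoding E230016M11Rik overlaps Gadd45a on the other strand: it had 44 and 61.1 normalised counts in Q418R, against 6.03 and 4.25 in R342C (2.62 ± 0.29, adjusted p = 0.000801), while Gadd45a had 746 and 706 normalised counts in Q418R, against 2269 and 1827 in R342C (-1.48 ± 0.24, adjusted p = 0.00731; leave-one-out adjusted p = 0.0688).

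In 3 pathway lists, 5 of the 6 called genes lay on chromosome 6. All 6 were lower, where 1.41% of all genes tested were lower. Of 25 tested glycolysis and pyruvate genes, Hk2, a hexokinase, and Tpi1, triose phosphate isomerase, were lower (-0.68 ± 0.12, adjusted p = 0.0104; -0.56 ± 0.10, adjusted p = 0.00991) and 23 were not called; both lie on chromosome 6, and the median of the list was -0.22. Of 14 genes of the unfolded protein response, the disulfide isomerase gene Pdia4 and Edem1, whose product directs misfolded glycoproteins to degradation, were lower (-0.65 ± 0.15, adjusted p = 0.0337; -0.64 ± 0.10, adjusted p = 0.00731), and both are again on chromosome 6, with a list median of -0.19. Of 20 ATF4 and amino acid stress genes, Slc7a11 and the chromosome 6 gene Mthfd2, a mitochondrial folate enzyme (-0.89 ± 0.15, adjusted p = 0.00841), were lower, with a list median of -0.16. In the glycolysis list 22 of 25 genes were below 0 and 3 above. In the unfolded protein response list all 14 were below 0, against 50.7% of all genes. Of the 2 lists, 6 and 2 tested genes in that order lay on chromosome 6 or proximal chromosome 5, so most genes below 0 lay elsewhere. Slc7a11 lies on chromosome 3, and each of the other 5 called genes sat in a stretch where the median gene was lower too. These 5 calls were lost when 1 library was left out, with a leave-one-out adjusted p of 0.0976 for Hk2, 0.117 for Tpi1, 0.27 for Pdia4, 0.0722 for Edem1 and 0.0832 for Mthfd2.

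Of 17 tested naive pluripotency genes, Tet2 and Dppa5a were lower in Q418R and 15 were not called, where 1.41% of all genes tested were lower. The list ran from -0.92 to 2.38, with 8 genes above 0, 9 below and a median of -0.18. Of the 17, 8 were at an unadjusted p under 0.05 (limma) and 6 were called by DESeq2, against 2603 and 769 of all 17506. Both shares of the naive list were larger than those of all genes. None of 15 general pluripotency genes was called, with 5 at an unadjusted p under 0.05 (limma) and 1 called by DESeq2. Dppa5a, which encodes an RNA-binding protein of stem cells, had 6208 and 5475 normalised counts in Q418R, against 9384 and 9618 in R342C (-0.70 ± 0.16, adjusted p = 0.038; leave-one-out adjusted p = 0.205). Nanog had 1323 and 1022 normalised counts in Q418R, against 1102 and 1887 in R342C, and the libraries of the lines overlapped (adjusted p = 0.533). Of 18 formative and primed genes only Otx2 was called. Otx2, the homeobox factor that directs the formative state, had 1176 and 1381 normalised counts in Q418R, against 308 and 328 in R342C (1.99 ± 0.31, adjusted p = 0.00599; leave-one-out adjusted p = 0.0548, the call being lost without Q418R replicate 2 and without R342C replicate 2), a level of 41.4 TPM in Q418R and 10.1 TPM in R342C. WT had 412 and 383. Fgf5, a second marker of that state, had 145 and 148 normalised counts in Q418R, against 61.1 and 127 in R342C and did not pass (adjusted p = 0.643). The list median was 0.13, and 17 of the 18 were not called.

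Genes of DNA methylation and demethylation had 3 lower genes among 11 tested, where 1.41% of all genes were lower, with a list median of -0.22, against -0.01 over all genes: Tet1 and Tet2, dioxygenases that oxidise 5-methylcytosine, and Gadd45a, described above. Tet1 had 7143 and 7165 normalised counts in Q418R, against 11234 and 10448 in R342C (-0.60 ± 0.12, adjusted p = 0.0236; leave-one-out adjusted p = 0.137). Tet2 had 1061 and 786 normalised counts in Q418R, against 1742 and 1721 in R342C (-0.92 ± 0.18, adjusted p = 0.0155; leave-one-out adjusted p = 0.129). For Tet1 the WT libraries, at 8996 and 7137, reached down to the Q418R values, and neither line differed from WT past the threshold (limma adjusted p = 0.458 for Q418R at -0.16, and adjusted p = 0.314 for R342C at 0.43). Of the 11 tested genes, 3 lay on chromosome 6 or proximal chromosome 5, Gadd45a among them. The next gene, Zfp57, belongs to none of the lists and was chosen after its values were seen. Zfp57, the zinc finger protein that protects methylation at imprinted regions, had 1508 and 1247 normalised counts in Q418R, against 2013 and 2396 in R342C (-0.68 ± 0.15, adjusted p = 0.0278; leave-one-out adjusted p = 0.232).

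Imprinted genes are expressed from 1 parental copy, and CTCF binding at the control region between Igf2 and H19 is the classic example of an insulator. Of 46 tested imprinted genes, H19 was higher, Plagl1 lower and 44 were not called. H19, the noncoding RNA gene of that locus, had 94.5 and 127 normalised counts in Q418R, against 26.7 and 17 in R342C (2.16 ± 0.41, adjusted p = 0.0153; leave-one-out adjusted p = 0.15). WT had 80.4 and 202, so R342C was the low line. Plagl1, a zinc finger gene of the imprinted growth network, had 225 and 275 normalised counts in Q418R, against 535 and 457 in R342C (-0.98 ± 0.19, adjusted p = 0.0151; leave-one-out adjusted p = 0.132). The list median was 0.10, and the 2 calls went in opposite directions, where 0.777% of all genes tested were higher and 1.41% lower. Of the 46, 15 were at an unadjusted p under 0.05 (limma) and 5 were called by DESeq2, against 2603 and 769 of all 17506. Both shares of the imprinted list were larger than those of all genes.

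Among signalling lists, 1 gene each was called for Wnt and BMP. Nkd2 was the only one of 16 Wnt targets, and the list median was -0.06. Chrd, the secreted BMP antagonist chordin, was the only one of 18 BMP and Id genes, with 265 and 286 normalised counts in Q418R, against 153 and 153 in R342C (0.83 ± 0.19, adjusted p = 0.0368; leave-one-out adjusted p = 0.189) and a list median of 0.15. Outside the lists, Sfrp1, which encodes a secreted Wnt antagonist and belongs to the 31, had 1261 and 1329 normalised counts in Q418R, against 596 and 761 in R342C (0.94 ± 0.12, adjusted p = 0.00259). None of 18 MEK and ERK targets was called, although 15 of the 18 were below 0 and the median was -0.40 (-0.52 to -0.25 with 1 library left out), against 50.7% of all genes below 0. None of 14 LIF and STAT3 targets, 15 Nodal genes, 18 FGF ligands and receptors, 16 Notch genes and 17 Eph receptors and ephrins was called, with medians of -0.16, 0.04, -0.03, -0.13 and 0.02 in that order. Of the 18 MEK and ERK targets, 2 were at an unadjusted p under 0.05, 2 were called by DESeq2 and 0 by edgeR. Over all 17506 genes tested these counts were 2603, 769 and 339.

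Markers of later cell types gave 1 call or none per list. Ncam1, a neural cell adhesion molecule, was higher as 1 of 10 neuroectoderm genes, with 585 and 536 normalised counts in Q418R, against 240.2 and 296 in R342C (1.06 ± 0.24, adjusted p = 0.0368; leave-one-out adjusted p = 0.211). Plet1 was the only one called of 14 trophectoderm genes, whose median was -0.52. No gene was called among 12 of the primitive streak and mesoderm (median -0.23), 18 of endoderm (0.05), 11 of the 2-cell-like state (0.36) and 10 of fibroblasts and smooth muscle (-0.16). Of 21 germline genes, Tex15, which acts in meiosis and in transposon silencing, was higher, with 2149 and 1739 normalised counts in Q418R, against 1164 and 1195 in R342C (0.71 ± 0.17, adjusted p = 0.0476; leave-one-out adjusted p = 0.318), and Rhox5 was lower; 19 of the 21 were above 0, against 49.3% of all genes tested, and the median was 0.35 (0.13 to 0.56 with 1 library left out). Of 25 genes for CTCF, cohesin and their regulators, only Wapl, which releases cohesin from DNA, was called. Wapl had 8361 and 8027 normalised counts in Q418R, against 11437 and 11651 in R342C (-0.49 ± 0.10, adjusted p = 0.0232; leave-one-out adjusted p = 0.154), and WT had 10108 and 8592. No gene was called among 9 Hox genes (median -0.62, 4 of them on chromosome 6), 20 p53 targets (-0.20), 19 sterol synthesis genes (-0.16), 21 cadherins and genes of epithelial to mesenchymal transition (-0.15), 20 laminins and basement membrane genes (-0.07), 13 mitochondrially encoded genes (-0.05) and 11 structural RNAs (-0.03). Cdkn2b was the only call among 22 cell cycle genes (median -0.10). Over the 18 lists without a call, 37 of 265 tested genes were at an unadjusted p under 0.05, 12 were called by DESeq2 and 0 by edgeR. Over all 17506 genes tested these counts were 2603, 769 and 339, so the first 2 shares were close to those of all genes. With 1 library left out, the medians of the Wnt, LIF and STAT3, Nodal, FGF, Eph, ATF4, endoderm, fibroblast, laminin, mitochondrial and structural RNA lists changed sign, so no direction is given for these lists.

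Other higher genes of the 31, outside the lists and chosen after their values were seen, were Chd3, Bcorl1 and Hmga2. Chd3, a subunit of a nucleosome remodelling and deacetylase complex, had 2115 and 2389.7 normalised counts in Q418R, against 1045 and 1156 in R342C (1.03 ± 0.14, adjusted p = 0.00295). Bcorl1, an X-linked transcriptional corepressor gene, had 1456 and 1609 normalised counts in Q418R, against 610.4 and 647 in R342C (1.28 ± 0.15, adjusted p = 0.000826). Hmga2, a DNA architectural protein gene, had 1513 and 1829 normalised counts in Q418R, against 710.2 and 665 in R342C (1.27 ± 0.18, adjusted p = 0.00398). For Bcorl1 and Hmga2 the WT libraries were nearer to R342C, at 791 and 614 and 692 and 1058, and for Chd3 they lay between the mutants, at 1595 and 1648.

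The other members of the 31 not yet given have varied roles. Chodl, which encodes a membrane protein of the C-type lectin fold, had 24.2 and 20.4 normalised counts in Q418R, against 0.861 and 1.06 in R342C (2.40 ± 0.36, adjusted p = 0.0056), from 42 reads in Q418R and 2 in R342C, a ratio of 23.4 (95% interval 6.08 to 199). Xaf1, an interferon-inducible gene of a partner of the apoptosis inhibitor XIAP, had 33 and 33.6 normalised counts in Q418R, against 10.3 and 6.37 in R342C (1.61 ± 0.20, adjusted p = 0.00158), and Prune2 had 1742 and 2036 normalised counts in Q418R, against 872 and 1030.4 in R342C (0.99 ± 0.14, adjusted p = 0.00301). Septin1, of the family of GTP-binding filament proteins, was lower, with 237 and 214 normalised counts in Q418R, against 671 and 636 in R342C (-1.52 ± 0.20, adjusted p = 0.00259). Of the lower genes that remain, Zfp800, a zinc finger gene, and Dusp11, an RNA phosphatase gene, lie on chromosome 6 and Nrbp1, a pseudokinase gene, on proximal chromosome 5. Zfp800 had 376 and 364 normalised counts in Q418R, against 799 and 722 in R342C (-1.03 ± 0.14, adjusted p = 0.00286), and Dusp11 and Nrbp1 differed by -0.65 ± 0.09 and -0.72 ± 0.10. Skida1 and Mcf2, also of the 31, were higher in Q418R by 1.52 ± 0.23 and 1.5 ± 0.14 (adjusted p = 0.00523 and 0.000374).

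The same lines in LIF gave a second view of these genes. These are other libraries, but the deviations of same-numbered libraries of a line from their group means correlated between the media (0.268 to 0.295 across genes in the 4 lines), so the media are not fully independent. Of the 383, 349 (91.1%) had the same sign in LIF, against 64.1% of all tested genes, and 124 were also called there in the same direction, where 490 genes were called in all (2.8% of those tested, 1.03% higher and 1.77% lower). The share with the same sign was 103 of 104 on chromosome 6, 60 of 62 on proximal chromosome 5 and 170 of 200 (85.0%) outside these stretches and chromosome 1. Differences were mostly smaller in LIF: the median over the 136 higher genes was 1.39 without LIF against 0.55 in LIF, and over the 247 lower genes -0.69 without LIF against -0.46 in LIF. The chosen genes had their no-LIF values used in their choice, so a smaller value in LIF is a description. The called genes of the chromosomal stretches were mostly smaller in LIF too. Their median on chromosome 6 was -0.65 without LIF against -0.52 in LIF, with 82 of 104 smaller in LIF. On proximal chromosome 5 it was -0.63 without LIF against -0.51 in LIF, with 47 of 62 smaller. Over all tested genes of these stretches, called or not, the medians in LIF were -0.36 and -0.44, against -0.35 and -0.46 without LIF. All 7 Xlr genes were also called in LIF, with differences of 1.85 (Xlr3b) to 3.70 (Xlr5a). For 6 of the 7 the difference in LIF was the smaller, as for Xlr3a with 2.81 without LIF and 2.38 in LIF (adjusted p = 0.00977 in LIF). Xlr5b had 2.98 without LIF and 3.35 in LIF. Against the genes that respond to LIF withdrawal in WT, 35 of the 136 higher genes rose there and 51 fell, and of the 247 lower genes 70 rose and 89 fell, whereas of all genes 25.4% rose and 21.7% fell, 47.1% together.

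**Figure D4:**
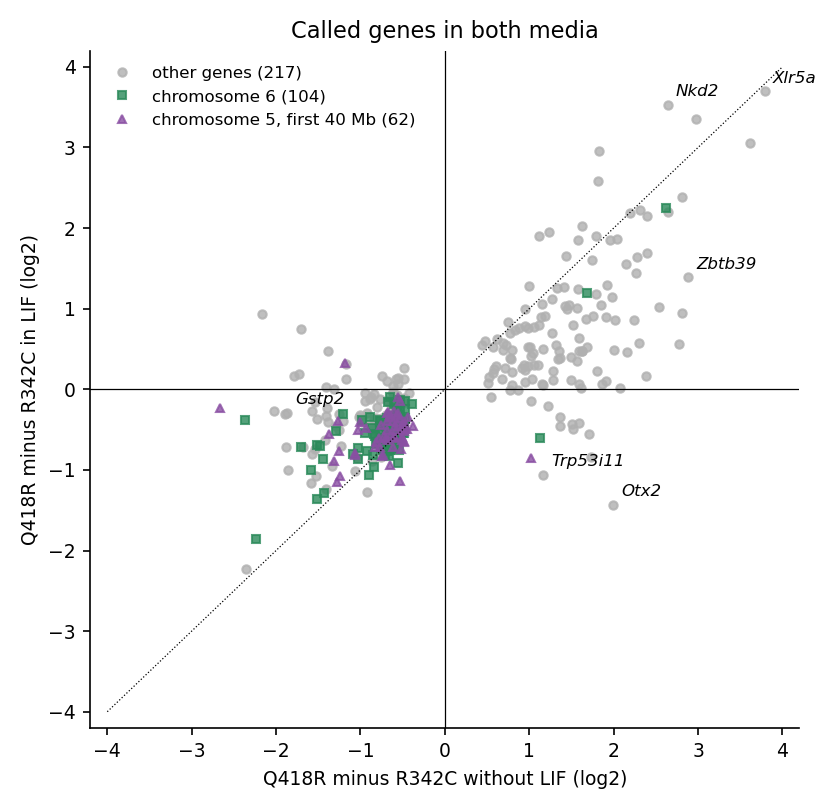
Difference Q418R minus R342C in LIF (vertical, log2) against that without LIF (horizontal, log2) for the 383 genes called without LIF; green squares are the 104 genes on chromosome 6, purple triangles the 62 on the first 40 Mb of chromosome 5 and grey circles the other 217, and the dotted line marks equal differences. Most genes keep their sign, the lower left is dense with genes of the 2 chromosomal stretches, and Otx2 and Trp53i11 lie in the lower right.

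For 11 genes (0.0628% of those tested; 9 or 0.0514% with a positive and 2 or 0.0114% with a negative interaction) the difference between the lines itself differed between the media, and the rule names 7 of these, with 4 more added because the group is small. The interaction was largest for Otx2. Without LIF it was higher in Q418R, as given above, and in LIF it had 23.8 and 27.9 normalised counts in Q418R, against 85 and 68.9 in R342C (-1.43, adjusted p = 0.0252), so the order of the lines turned round. WT had 77.9 and 75.6 in LIF, near R342C. Trp53i11, a p53-inducible gene, also turned round: its difference was 1.16 ± 0.24 without LIF (adjusted p = 0.024; leave-one-out adjusted p = 0.143) and -1.06 in LIF (adjusted p = 0.0315). Zbtb16, which encodes the transcription factor PLZF, had 218 and 208 normalised counts in Q418R, against 74 and 50.9 in R342C (1.73 ± 0.29, adjusted p = 0.00841; leave-one-out adjusted p = 0.0951), and in LIF 52.4 and 36.8 in Q418R, against 74 and 90.3 in R342C. Ntrk3 and Slit2, genes for a neurotrophin receptor and a guidance ligand, were called in LIF but not without it. In LIF, Ntrk3 had 228 and 217 in Q418R, against 935 and 960.5 in R342C, and Slit2 had 424 and 435 in Q418R, against 1089 and 1025 in R342C. Without LIF both lay the other way. Ntrk3 was near the floor there, with 15.4 and 14.3 in Q418R, against 7.75 and 3.18 in R342C. Slit2 had 191 and 196 in Q418R, against 102 and 112 in R342C (0.83 ± 0.22, adjusted p = 0.0725). Slc1a3, a glutamate transporter gene, overlapped between the lines without LIF, with 1375 and 1407 in Q418R, against 1722 and 1261 in R342C, and was higher in Q418R in LIF, with 346 and 356 in Q418R, against 85 and 92.1 in R342C. The count of 11 fell to between 0 and 6 when 1 of the 8 libraries was left out. In limma it was 6 without R342C no-LIF replicate 2, 1 without R342C no-LIF replicate 1 and 0 without any 1 of the other 6, where 732 to 1107 genes were at an unadjusted p under 0.05. It was also 0 with TPM, where 893 genes were at an unadjusted p under 0.05, while edgeR gave 15 and DESeq2 113. With the replicate number as a block within each line, a fit chosen after seeing the data, it was 80. These were 50 with a positive and 30 with a negative interaction, and they held all 11.

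**Figure D5:**
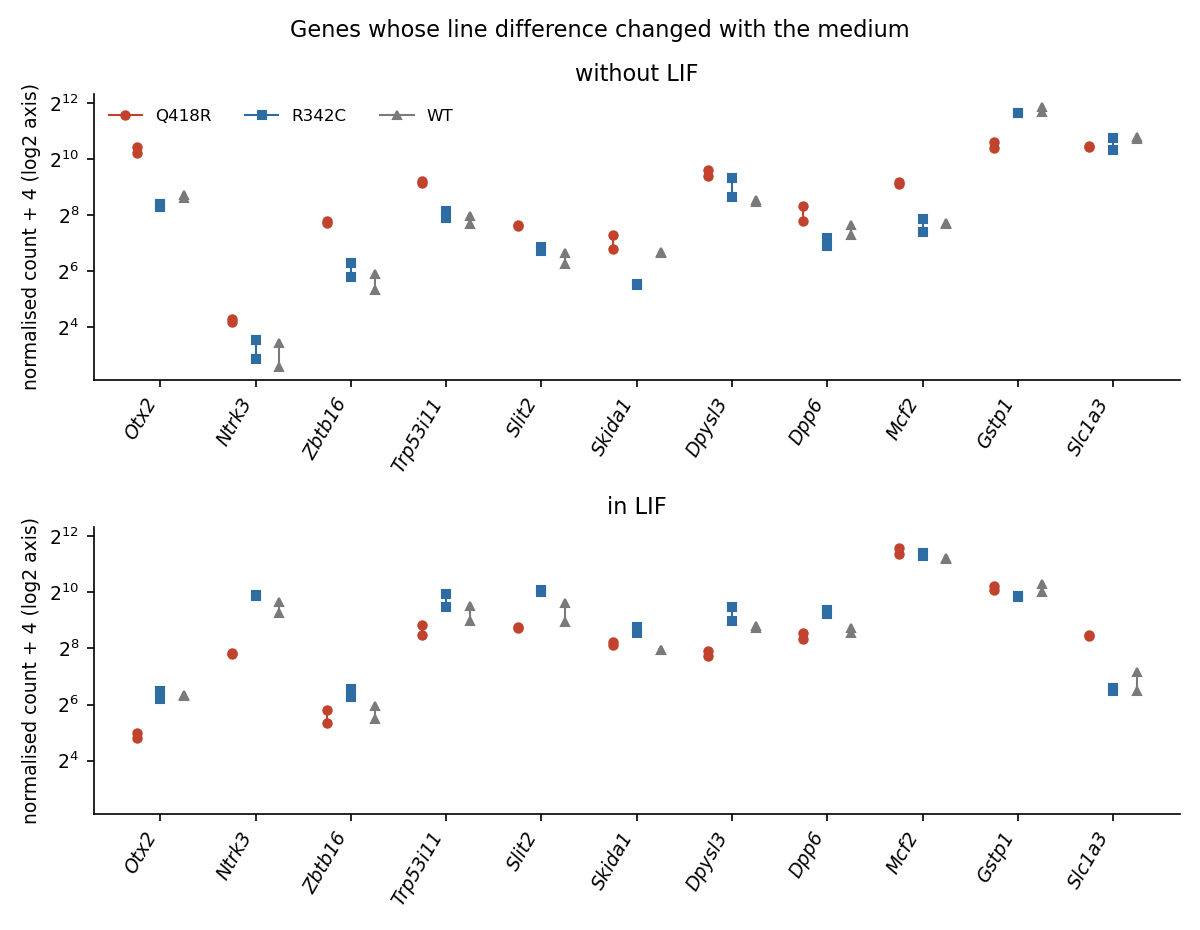
Normalised counts plus 4, on a log2 axis, of the 11 genes whose Q418R minus R342C difference depended on the medium, without LIF (top) and in LIF (bottom), in each library of Q418R, R342C and WT. Otx2 and Trp53i11 are higher in Q418R at the top and lower in Q418R at the bottom, and Slc1a3 differs between the lines at the bottom alone.

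CTCF recognises a long motif, and a word from its core, AGGGGGC on either strand, was looked for between 250 bases before and 50 after the RefSeq start of each gene (GRCm38.p6). It was found in 59 of the 312 called genes with a start region in the table (18.9%), 18 of 98 higher and 41 of 214 lower genes, in 2286 of 11811 tested genes (19.4%) and in 3208 of 27025 genes of the whole table (11.9%). The share in called genes was close to that of all tested genes, and the word was in none of the 7 Xlr genes. A stretch around the word is shown for Bcorl1 and Mcf2, which belong to the 31, and for Tet2, 5′ to 3′ along the gene's strand, with the word or its reverse complement in capitals, at chrX:48341304-48341328 (plus strand), chrX:60179040-60179064 (minus strand) and chr3:133544384-133544408 (minus strand). A match of this short word is not a measured site.
Bcorl1: tgcaggcccGCCCCCTtcttcctcc
Mcf2: gtcccagctAGGGGGCtctagtctt
Tet2: gtcacgtccGCCCCCTcggcggccg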

How the data were processed

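Total RNA from 16 mouse embryonic stem cell libraries was deposited by the authors in 2 tables, one of normalised counts (a signal with 1 scale factor for each library) and one of TPM. Trim Galore, STAR and DESeq2 with mm10 are named in the submitters' processing notes, without versions; the counting tool and annotation are not given in the sources used here. The normalised counts are whole multiples of 1 step per library within a tolerance of 0.05, which gave 19721363 to 31935381 reads per library. Rows naming no gene and columns of other samples were not found.

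After 4 was added, normalised counts were taken to log2, and limma 3.58.1 (R 4.3.3, trend) fitted 8 group means over the 16 libraries, with 8 residual degrees of freedom, for genes with a mean of at least 10 over the 4 no-LIF libraries of both lines. The contrasts were Q418R minus R342C in each medium and their difference, with Benjamini-Hochberg adjustment and a threshold of 0.05. Adding 4 compresses differences of low genes, so ratios of recovered reads with exact 95% binomial intervals are given for genes with at most 3 reads in a line. Alternatives used edgeR 4.0.16 and DESeq2 1.42.0 on the recovered reads, and limma on log2 of TPM plus 0.1. Between the 2 media of a line, deviations of same-numbered libraries correlated by 0.268 to 0.295 in all 4 lines, so a block within each line was fitted for the interaction. Between groups of different lines they correlated above 0.1 in 10 of 24 pairs, over a range of -0.383 to 0.456. As this range is wider than that within lines, the correlations do not settle whether replicate numbers pair libraries. Positions are from GENCODE M21 (mm10; 53186 of 55291 genes with 1 position).

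Genes, the 34 gene lists and the choice of comparison were made with earlier results of these data known. The rule names Ctcf, the 12 largest rises and falls among called genes that averaged 100 or more and did not overlap, called genes with at most 3 reads in 1 line, interaction genes, up to 4 called members of each list (otherwise the 2 most abundant) and 3 called genes on each shifted chromosome; a few that it picks are not described, and other named genes were chosen after their values were seen.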

Additional observations from a re-analysis of the deposited data

Results flagged for a closer look

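In 11 genes the difference Q418R minus R342C itself differed between the media by the interaction term of the limma fit (adjusted p under 0.05 over 17506 genes). The difference without LIF minus the difference in LIF was 3.42 for Otx2, 3.11 for Ntrk3, 2.56 for Zbtb16, 2.21 for Trp53i11, 2.12 for Slit2, 2.01 for Skida1, 1.93 for Dpysl3, 1.88 for Dpp6 and 1.39 for Mcf2 on the log2 scale, so these 9 leaned further towards Q418R without LIF. It was -1.48 for Gstp1 and -2.02 for Slc1a3. Adjusted p was 0.0157 for Otx2 and 0.0157 for Gstp1, and 0.048 for Dpp6, the highest of the 11. With the replicate number as a block within each line, a fit chosen after seeing the data, adjusted p of the 11 was 0.00276 to 0.026 (limma). The 11 were picked by the same contrast in the same libraries, so these values add no support. The count fell when a library was left out, as given above.

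Mcf2 had 549 and 568 normalised counts in Q418R, against 229 and 166 in R342C without LIF, and 2631 and 3069 in Q418R against 2532 and 2739 in R342C in LIF, where the lines overlapped. Dpysl3, a gene of axon growth, had 673 and 776 normalised counts in Q418R, against 393 and 628 in R342C, and in LIF 209.7 and 238 in Q418R against 499 and 705 in R342C. Dpp6, a potassium channel subunit gene, had 217 and 317 normalised counts in Q418R, against 139 and 116 in R342C (1.02 ± 0.22, adjusted p = 0.0286; leave-one-out adjusted p = 0.21), and in LIF 319 and 370.4 in Q418R against 595 and 656 in R342C. Skida1 had 107 and 152 normalised counts in Q418R, against 42.2 and 41.4 in R342C, and in LIF 294 and 272 in Q418R against 374 and 428 in R342C. What these genes share was not tested.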

How the results depend on the processing

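No named gene that was called changed direction in any of 2017 values under alternatives. The libraries of the 2 lines did not overlap in any called gene, so leaving out a library could not turn a direction round. The lack of reversals therefore adds no support. Of the 2017 values, 1649 stayed on the same side of the threshold and 368 did not. The counts of called genes for Q418R against R342C without LIF, in LIF and for the interaction were 383, 490 and 11. With TPM they were 131, 264 and 0 (893 genes of the last at an unadjusted p under 0.05, limma), and with DESeq2 769, 917 and 113; edgeR gave 339 without LIF. Leaving out 1 library gave 58 to 309 without LIF, 34 to 457 in LIF and 0 to 6 for the interaction; the lone library of a group is then assumed to vary like the other groups. With the libraries of the 2 lines alone the interaction count was 44. Genes outside the chromosomes with a shifted median (1 and 6) gave 214 and 320 calls, and, in an alternative chosen after seeing the data, those also outside proximal chromosome 5 gave 129 and 248. Upper-quartile scaling moved the share of higher calls to 48.7%, against 35.5%, and TPM to 46.6%. The cause of these changes was not tested, beyond the fewer samples or genes that the alternatives hold. Depth limits genes near 0, where 3 reads decide a value.

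Between groups of different lines, the deviations of same-numbered libraries correlated above 0.1 in 10 of 24 pairs, with both signs present (range -0.383 to 0.456). Within a line they correlated by 0.268 to 0.295 between the media. The larger values between lines leave pairing by replicate number unsettled. With the replicate block over all libraries the counts were 385, 506 and 8. With the replicate block within each line, chosen after seeing the data, the interaction count was 80, against 11.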
